A study of Mus musculus with 4 samples.

Results

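The disallowed genes of the beta cell are genes that most mammalian tissues use and that beta cells, the insulin-secreting cells of the pancreatic islet, are known to keep low. The set examined here held 10 mouse genes (Ldha, Slc16a1, Hk1, Acot7, Cat, Mgst1, Oat, Pdgfra, Lmo4 and Fcgrt), chosen by name. Each of the 10 had a single probeset, a set of array probes that reads 1 transcript, that the platform annotation paired with that gene alone, so 10 of 22180 genes with such a probeset were members and none was left out as dim. The arrays held RNA of whole pancreatic islets from C57BL/6 mice aged 5 to 6 months, kept in RPMI medium before extraction. The 41 Tg mice (Tg below) carry a transgene of GPR41, a cell-surface receptor that senses short-chain fatty acids and whose mouse gene is Ffar3, and the controls were WT littermates, with 2 arrays in each group. The labels give neither the promoter of the transgene nor the number of mice behind an array, so p-values measure the spread between these arrays. The study asked how GPR41 alters islet gene expression, and the question here is whether the genes that beta cells keep low differ in Tg islets.

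The names of these genes carry the biology. Lactate dehydrogenase A (Ldha) and the monocarboxylate transporter MCT1 (Slc16a1) make and move lactate, and low levels of both in beta cells direct pyruvate into mitochondria and keep circulating lactate and pyruvate from triggering insulin secretion. Hexokinase 1 (Hk1) binds glucose tightly and so works even when glucose is low, and a low catalase (Cat) level leaves beta cells with little defence against hydrogen peroxide. In mice, the DNA methyltransferase Dnmt3a is known to repress Ldha and Hk1 in maturing beta cells, the transcription factor Rfx6 to repress several disallowed genes, and microRNAs of the miR-29 family to target Slc16a1.

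The mature miR-29 sequences are shown because they are the named microRNA repressors of a member. They are written 5′ to 3′ as RefSeq gives them on GRCm38.p6, with the seed (bases 2 to 8), the part that pairs with targets, in capitals.
mmu-miR-29a-3p (chr6:31062673-31062694, minus strand): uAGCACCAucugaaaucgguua
mmu-miR-29b-3p (Mir29b-1, chr6:31063025-31063047, minus strand): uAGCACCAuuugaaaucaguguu
mmu-miR-29c-3p (chr1:195037600-195037621, plus strand): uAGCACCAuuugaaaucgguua
All 3 share 1 seed, so a single seed match in a target can be read by each of them. Of the genes that encode them, Mir29a and Mir29b-1 had single-gene probesets, and their values are given with the regulators.

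The start regions of the 3 glucose and lactate genes are shown because they share a short motif. Each is the RefSeq window of 250 bases before to 50 bases after a transcript start on GRCm38.p6, written 5′ to 3′ on the strand of the gene. Capitals mark ACGTG and GCGTG and their reverse complements CACGT and CACGC, the core to which hypoxia-inducible factors bind. Matches were counted on both strands, so that CACGTG, the E-box read by Myc and other factors, counts on each.
Ldha (chr7:46845554-46845853, plus strand): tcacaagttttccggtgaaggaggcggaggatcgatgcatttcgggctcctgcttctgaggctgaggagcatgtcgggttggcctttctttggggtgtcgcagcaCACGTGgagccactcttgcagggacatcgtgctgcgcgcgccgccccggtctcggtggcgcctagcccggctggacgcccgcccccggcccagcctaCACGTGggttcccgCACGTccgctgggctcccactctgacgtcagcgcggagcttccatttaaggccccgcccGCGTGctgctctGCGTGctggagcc
Slc16a1 (chr3:104638414-104638713, plus strand): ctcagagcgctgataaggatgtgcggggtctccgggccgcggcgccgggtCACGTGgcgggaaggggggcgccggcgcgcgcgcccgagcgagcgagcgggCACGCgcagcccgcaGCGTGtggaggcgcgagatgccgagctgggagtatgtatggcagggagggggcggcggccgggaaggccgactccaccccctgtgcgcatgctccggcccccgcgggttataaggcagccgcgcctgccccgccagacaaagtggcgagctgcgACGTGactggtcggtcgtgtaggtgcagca
Hk1 (chr10:62340372-62340671, minus strand): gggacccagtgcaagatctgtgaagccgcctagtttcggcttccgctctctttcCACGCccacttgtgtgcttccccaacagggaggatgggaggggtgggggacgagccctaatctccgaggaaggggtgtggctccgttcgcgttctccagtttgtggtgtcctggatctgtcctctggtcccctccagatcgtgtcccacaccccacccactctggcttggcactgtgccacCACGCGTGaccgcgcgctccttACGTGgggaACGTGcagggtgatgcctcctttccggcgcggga
The Ldha window held 7 matches, the Slc16a1 window 5 and this Hk1 window 5, while 3.86% of all 32851 windows of the same length held at least 4. This is a description and no test, as these windows were picked for the motif. Each core also contains a CpG (a C followed by a G), and these windows held 30, 42 and 20 CpGs. The median over all windows was 7. At least 1 match stood in 9 of the 15 windows of the 10 members, against 43.8% of all windows. The Lmo4 windows with 30 and 31 CpGs overlap and held 1 match each, so part of that sequence is counted more than once. No match stood in the windows of Cat, Mgst1 or Pdgfra, nor in the Lmo4 window with 52 CpGs. The upstream window of Hk1 had none either, and the other Ldha window had 2.

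CpG dinucleotides, the sites that DNA methyltransferases modify, were unevenly spread over the members. The windows held between 1 and 52 CpGs, and 10 of 15 held more than the median of 7 over all windows. A window of Lmo4 held the most, with 52 CpGs beside 30 and 31 in its other windows, which overlap each other. Slc16a1 had 42, and Ldha had 30 in the window printed above and 13 in the other. Pdgfra and Fcgrt had 5 each and Acot7 had 6. These are features of the reference sequence, and neither methylation nor binding was measured here.

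On the arrays, the log2 values of all probesets had medians of 6.46 to 6.47 on the Tg arrays and 6.43 to 6.46 on the WT arrays. The transgene check held, with Ffar3 at 11.02 and 10.98 on the Tg arrays, against 7.09 and 6.47 on the WT arrays (difference 4.22, SE 0.21; limma, adjusted p = 0.0020). Without variance moderation the same difference had an adjusted p of 0.472 (limma's linear model), and it stayed past the threshold in the 13 other alternatives.

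The disallowed genes were spread around the middle of the range in WT islets, not at its bottom. Their place was read as a percentile, the share of the 22180 genes with a lower WT mean, and as probesets differ in how well they bind, the order between genes is approximate. The median of the 10 percentiles was 52.0 in WT islets. As a yardstick for genes that islets do not use, 1105 olfactory receptor genes were taken, whose WT means had a median of 4.06 and a 95th percentile of 5.82. Of the 10 members, 9 lay above 5.82, as did 59.3% of all genes, and 5 lay above the 99th percentile of the olfactory genes, 6.78, as did 47.0% of all genes. No other tissue was measured here, so whether these genes are selectively low in islets was not tested. The arrays read whole islets, and 9 markers of acinar cells, the digestive enzyme cells around islets, had a median WT percentile of 98.1. Those markers ranged from 13.0 to 100. The levels are thus of mixed cells, and levels in beta cells alone were not measured.

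Catalase did not stand low in these islets. Cat had a Tg mean of 10.40 and a WT mean of 10.31, at percentiles 93.7 and 93.0, with all 1105 olfactory receptor genes below it. Lmo4, a LIM-only transcriptional regulator that binds the cofactor Ldb1, stood at percentile 66.3 in Tg and 73.4 in WT islets. Oat, the mitochondrial ornithine aminotransferase, stood at 75.8 in Tg and 68.9 in WT islets. In WT islets these 3 ranked above the other 7 members.

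The classical lactate pair stood lower. Slc16a1 was at percentile 57.8 in Tg and 58.4 in WT islets, and Ldha at 44.7 in Tg and 45.1 in WT islets. Mgst1, a membrane-bound glutathione transferase, was at 55.3 in Tg and 54.1 in WT islets. Fcgrt, the heavy chain of the neonatal Fc receptor that recycles IgG and albumin, was at 49.1 in Tg and 49.8 in WT islets. Hk1 was at 48.5 in Tg and 49.1 in WT islets, and Acot7, which cleaves long-chain acyl-CoA, at 51.1 in Tg and 48.8 in WT islets.

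Pdgfra, the receptor for platelet-derived growth factor that fibroblasts carry, was the lowest member, at percentile 44.1 in Tg and 37.4 in WT islets. Its WT mean of 5.62 was below the olfactory line of 5.82, with 92.9% of olfactory receptor genes lower. On the WT arrays, Slc16a1 overlapped with Mgst1, Fcgrt with Hk1, Hk1 with Acot7 and Acot7 with Ldha, so these neighbours did not differ beyond their spread. Cat, Lmo4, Oat and Pdgfra each had a range of their own on the WT arrays, although Lmo4 (70.9 to 75.8), Oat (66.9 to 70.7) and Slc16a1 (51.3 to 66.1) were parted by less than 1 percentile point, as were Ldha (41.7 to 48.3) and Pdgfra (33.2 to 41.4).

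**Figure D1:**
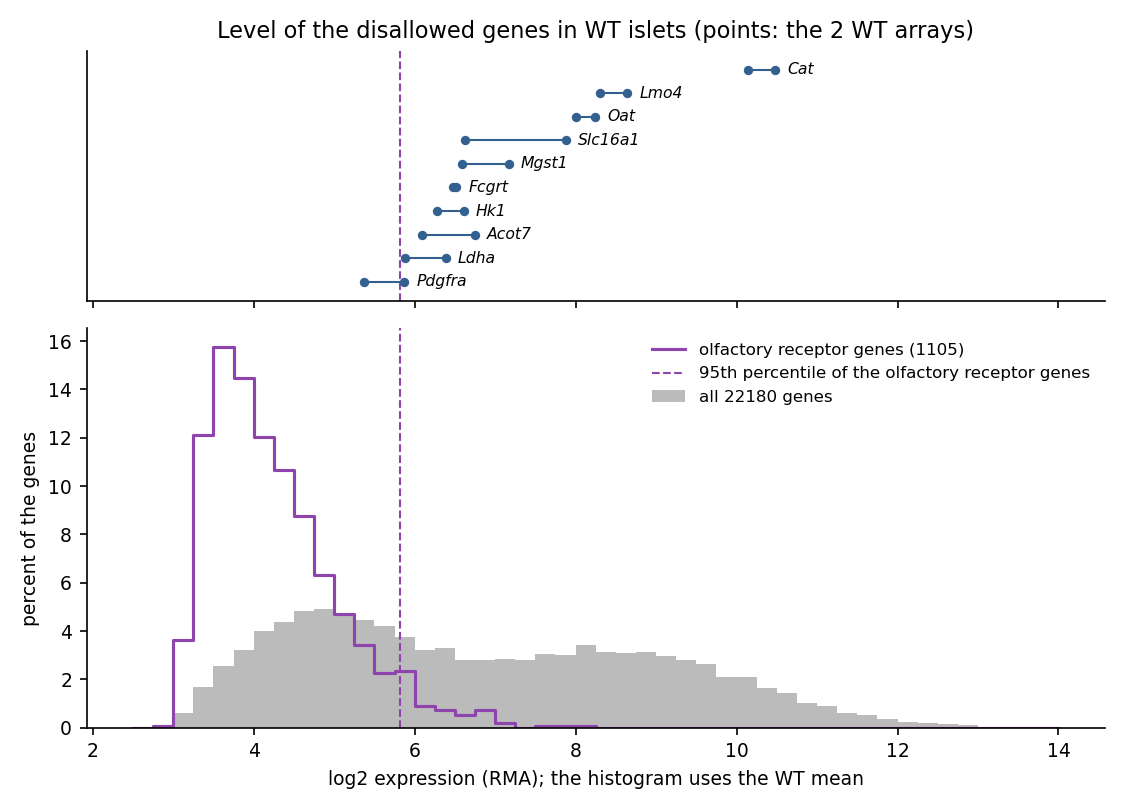
The upper part plots the log2 values of each disallowed gene on the 2 WT arrays, joined by a line, and the lower part the distribution of WT means over all 22180 genes (grey bars) and 1105 olfactory receptor genes (purple outline), in percent of each set. The dashed line is the 95th percentile of the olfactory receptor genes, 5.82, and the WT mean of 9 of the 10 members lies above it, with Cat farthest to the right and Pdgfra below it.

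Of the 10 disallowed genes, 0 passed an adjusted p under 0.05 in Tg against WT islets (limma over all 22180 genes), where the same rule called 0.897% of all genes, 0.672% higher and 0.225% lower. At an unadjusted p under 0.05 there were 2 members, against 11.8% of all genes: Oat was higher, as were 6.13% of all genes, and Lmo4 lower, as were 5.72%. The groups did not overlap for 3 members, against 42.3% of all genes. Of these, Oat and Pdgfra were higher in Tg islets (18.6% of all genes) and Lmo4 lower (23.7% of all genes). Counts this small in 10 genes do not set the members apart from all genes. The Tg minus WT differences were above 0 for 5 members and below 0 for 5, with a median of 0.042, beside -0.017 over all genes, and a range from -0.56 to 0.51. Without WT replicate 2 the median was 0.33, and without WT replicate 1 it was -0.16. With 2 arrays a group, the smallest two-sided p of an exact permutation test is 0.333, so p-values rest on limma's model. In whole islets fewer cells of a type cannot be told apart from less RNA per cell.

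**Figure D2:**
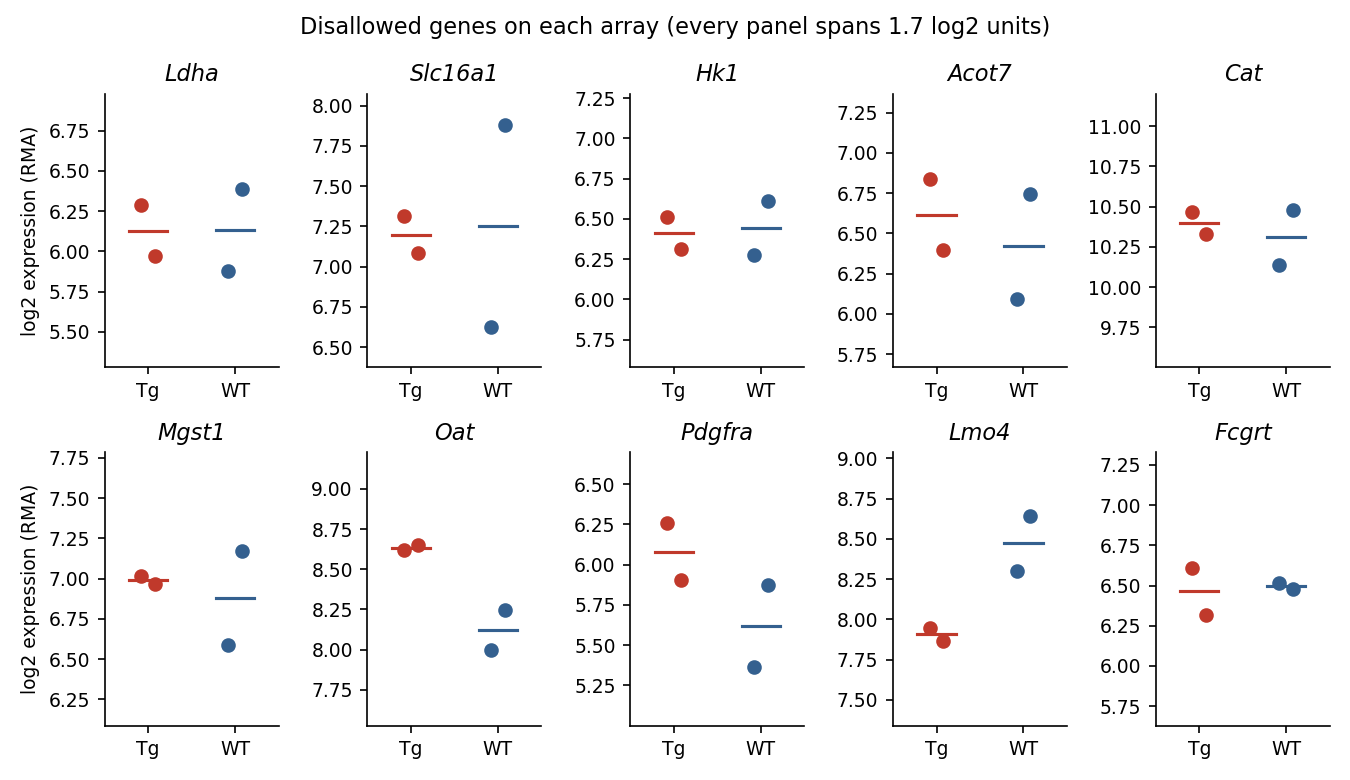
Each panel plots the log2 values of 1 disallowed gene on the 2 Tg arrays (red, left) and the 2 WT arrays (blue, right), with a bar at each group's mean. The vertical scale has the same length in every panel, so the wide WT spread of Slc16a1 (6.62 and 7.88) and the separate groups of Oat and Lmo4 can be compared by eye.

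Ldha, the enzyme that turns pyruvate into lactate, differed by far less than the spread between arrays. Its log2 values were 6.29 and 5.97 on the Tg arrays and 5.88 and 6.39 on the WT arrays. The groups overlapped fully, with both Tg values inside the WT range. The difference was -0.0038 (SE 0.20, 95% confidence interval -0.50 to 0.50; limma adjusted p = 0.999), so the interval spans 0.705-fold to 1.41-fold. With each array left out in turn it lay between -0.26 and 0.25.

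Slc16a1, the transporter through which lactate and pyruvate cross the membrane, was the member least well measured. It read 7.31 and 7.09 on the Tg arrays and 6.62 and 7.88 on the WT arrays. The WT arrays were 1.26 apart, and both Tg values fell between them. The difference of -0.053 (SE 0.39; limma adjusted p = 0.983) had an interval from -1.02 to 0.91, which includes 0.495-fold and 1.88-fold. It was -0.68 without WT replicate 1 and 0.58 without WT replicate 2, so a single WT array sets its direction.

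The related carriers and enzymes of lactate and pyruvate gave 0 of 18 measured members past the adjusted test. By unadjusted p, 0 were higher and 2 lower, and the median difference was -0.11. The lactate dehydrogenase gene of the other subunit, Ldhb, was at 7.69 and 7.60 on the Tg arrays and 7.84 and 7.53 on the WT arrays (difference -0.038). The transporters MCT4 (Slc16a3, 0.14) and MCT2 (Slc16a7, -0.43, adjusted p = 0.484 by limma) did not pass. That of Slc16a7 was -0.73 without WT replicate 1 and -0.14 without WT replicate 2. Bsg, the chaperone that brings MCT1 to the membrane, was at -0.11 and stood at percentile 99.2 in WT islets. The 2 lower genes supply or meter mitochondrial fuel use. Gpd2, the mitochondrial glycerol phosphate dehydrogenase of an NADH shuttle, had 8.68 and 8.60 on the Tg arrays and 9.34 and 9.32 on the WT arrays (difference -0.69, SE 0.10; limma adjusted p = 0.059). Pdk4, a kinase that inhibits pyruvate dehydrogenase, had 8.87 and 9.12 on the Tg arrays and 9.79 and 9.60 on the WT arrays (difference -0.70, SE 0.14; limma adjusted p = 0.118).

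Hk1, the high-affinity hexokinase, also differed by less than the spread between arrays. It had 6.51 and 6.31 on the Tg arrays and 6.27 and 6.61 on the WT arrays. The Tg values lay inside the WT range, and the difference was -0.028 (SE 0.15, interval -0.40 to 0.35; limma adjusted p = 0.975). A second probeset that names Hk1 together with Hk1os, left out for naming a pair of genes, had 5.66 and 5.80 on the Tg arrays and 5.83 and 5.94 on the WT arrays (difference -0.16, limma adjusted p = 0.694 in a fit of all probesets). Of 7 measured genes of glucose uptake and phosphorylation, 0 passed by adjusted or by unadjusted p. They included Hk2 (0.094), Hk3 (0.16) and G6pc2, the islet glucose-6-phosphatase (0.12). The WT mean of Hk3, 5.50, lay below the olfactory line of 5.82.

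The antioxidant members differed by less than the gap between the WT arrays. Cat, which breaks down hydrogen peroxide in peroxisomes, had 10.46 and 10.33 on the Tg arrays and 10.14 and 10.48 on the WT arrays. Its groups overlapped, with both Tg values inside the WT range, and its difference was 0.088 (SE 0.15, interval -0.27 to 0.45; limma adjusted p = 0.893). Mgst1 had 7.02 and 6.97 on the Tg arrays and 6.59 and 7.17 on the WT arrays, again with the Tg values inside the WT range. The difference was 0.11 (SE 0.20, interval -0.38 to 0.61; limma adjusted p = 0.903).

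Among 21 other measured genes of peroxide and glutathione metabolism, 0 passed the adjusted test, 5 were higher and 1 lower by unadjusted p, and the median difference was 0.040. The higher ones by smallest p were the glutathione peroxidases Gpx4 (0.45, SE 0.10; limma adjusted p = 0.163) and Gpx3 (0.51, SE 0.14) and the mitochondrial peroxiredoxin Prdx3 (0.42, SE 0.12). Gpx4 had 8.46 and 8.51 on the Tg arrays and 8.05 and 8.02 on the WT arrays, which did not overlap.

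Acot7 had 6.84 and 6.39 on the Tg arrays and 6.09 and 6.75 on the WT arrays. Its groups overlapped, and the difference was 0.20 (SE 0.25, interval -0.43 to 0.82; limma adjusted p = 0.846). A related gene did pass, though its WT mean of 5.83 was near the olfactory line of 5.82. Acot12, a thioesterase that releases acetate from acetyl-CoA, rose 1.96-fold. It had 6.78 and 6.83 on the Tg arrays and 5.89 and 5.78 on the WT arrays (difference 0.97, SE 0.11; limma adjusted p = 0.030). This call was lost with each array left out in turn, where the adjusted p lay between 0.061 and 0.175, and the difference between 0.92 and 1.02. It was the only one of 11 other measured acyl-CoA thioesterase genes past the test, whose median difference was -0.022. The mitochondrial Acot2 was lower and Acot3 higher by unadjusted p, at -0.36 and 0.37. The WT mean of Acot3, 5.38, lay below the olfactory line.

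Oat, which links ornithine to proline and glutamate, was the member with the highest difference. It had 8.62 and 8.65 on the Tg arrays and 8.0 and 8.24 on the WT arrays. Both Tg values exceeded both WT values. The difference of 0.51 (SE 0.12, interval 0.21 to 0.82), a 1.43-fold higher level, had an unadjusted p of 0.0066 and an adjusted p of 0.186 in limma, and so did not pass. It stayed between 0.39 and 0.63 with each array left out. Of 10 measured genes of ornithine, proline and arginine metabolism, 0 passed the adjusted test and 2 were lower by unadjusted p. These were Prodh, the proline dehydrogenase (-0.50, SE 0.12), and Glul, the glutamine synthetase (-0.45, SE 0.14). Arg2, the mitochondrial arginase that makes ornithine, was at 0.49 (SE 0.22), at 0.17 without WT replicate 1 and at 0.81 without WT replicate 2.

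Lmo4 was the member with the lowest difference. It had 7.95 and 7.87 on the Tg arrays and 8.30 and 8.64 on the WT arrays, with both Tg values under both WT values. The difference of -0.56 (SE 0.14, interval -0.92 to -0.21), a 1.48-fold lower level, had an unadjusted p of 0.0083 and an adjusted p of 0.209 in limma. It stayed between -0.73 and -0.40 with each array left out. Of 6 related LIM-only, LIM-binding and LIM homeodomain genes, 0 passed by adjusted or unadjusted p. Isl1, an islet transcription factor, was at -0.25 and Lmo3 at -0.20. The WT mean of Lmo3, 5.38, lay below the olfactory line of 5.82. Markers of alpha cells, which also contribute RNA, were lower beside Lmo4 in 4 of 4 measured genes, with summed linear signals of 18222 and 20855 on the Tg arrays and 24913 and 22656 on the WT arrays. Beta cell markers were lower in 6 of 9 measured genes. The part of either cell type in the Lmo4 value was not tested.

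Pdgfra had 6.26 and 5.90 on the Tg arrays and 5.37 and 5.87 on the WT arrays. The groups were parted by a narrow margin, with the lower Tg value just over the higher WT value. The difference was 0.46 (SE 0.21, interval -0.053 to 0.97; limma adjusted p = 0.467). It was 0.21 without WT replicate 1 and 0.71 without WT replicate 2, and 0.28 without Tg replicate 1 and 0.64 without Tg replicate 2. Mesenchymal markers were higher in Tg for 10 of 10 genes, with 0 past the adjusted test, and their summed linear signal was 4633 and 3295 on the Tg arrays and 2444 and 2921 on the WT arrays. Of these markers, Lum and Col3a1 lay below the olfactory line of 5.82, at WT means of 4.10 and 5.66. Within that list, which also holds Pdgfrb, the differences of the collagens Col1a1 and Col3a1 were 0.10 and 0.072, and that of the proteoglycan Dcn was 1.79 (SE 0.26; limma adjusted p = 0.054). Endothelial markers were also higher in 10 of 10 genes, with 0 past the adjusted test and 6 at an unadjusted p under 0.05, and a summed linear signal of 6271 and 4989 on the Tg arrays and 4329 and 3755 on the WT arrays. The part of mesenchymal and endothelial cells in the Pdgfra value was not tested. Of 5 other measured genes of the pathway, the receptor Pdgfrb was at 0.38 (SE 0.10) and the ligand Pdgfa at -0.32 (SE 0.11), and 0 passed the adjusted test.

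Fcgrt differed by less than the gap between the Tg arrays. It had 6.61 and 6.32 on the Tg arrays and 6.52 and 6.48 on the WT arrays, so that the Tg arrays enclosed the WT arrays. The difference was -0.033 (SE 0.13, interval -0.36 to 0.29; limma adjusted p = 0.966). Its light chain, B2m, was at 0.17 (SE 0.11). The 6 genes compared were B2m, the separate IgG receptor genes Fcgr1, Fcgr2b, Fcgr3 and Fcgr4, and their signalling chain Fcer1g. All 6 were higher, and Fcgr2b, the inhibitory receptor for IgG, passed. It had 7.58 and 7.67 on the Tg arrays and 6.58 and 6.56 on the WT arrays (difference 1.06, SE 0.10, limma adjusted p = 0.021). That call too was lost with each array left out, at an adjusted p of 0.060 to 0.131. Fcgr4 (0.77), Fcgr1 (0.73), Fcer1g (0.62) and Fcgr3 (0.60) did not pass. Immune cell markers were higher in 9 of 9 measured genes, of which Coro1a passed (a call lost with each array left out), with a summed linear signal of 4343 and 3762 on the Tg arrays and 2337 and 1843 on the WT arrays. Of these immune markers, Laptm5 and Itgam lay below the olfactory line of 5.82, at WT means of 5.29 and 5.73. The endothelial markers given beside Pdgfra were higher too. The part of both in the Fc receptor values, and the difference between Fcgrt and these receptors, was not tested.

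**Figure D3:**
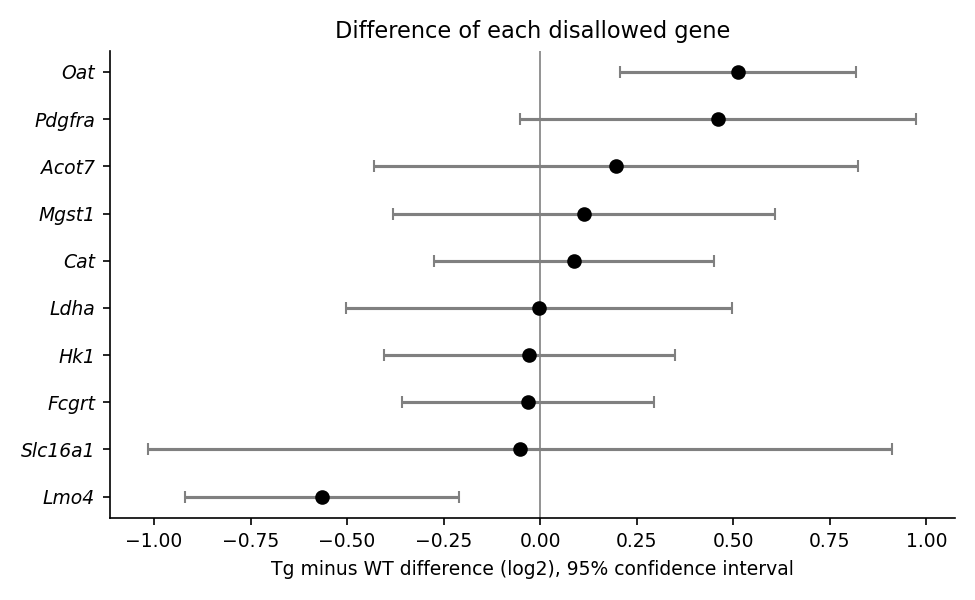
Points are the Tg minus WT differences of the 10 disallowed genes on the log2 scale, and bars their 95% confidence intervals from limma. The intervals of Oat (0.21 to 0.82) and Lmo4 (-0.92 to -0.21) do not include 0 before correction for the number of genes, and that of Slc16a1 is the widest, from -1.02 to 0.91.

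Most disallowed genes varied alike from array to array within the groups. This was seen in the values and not planned, and is given as a description. Of the 10 members, 9 were higher on WT replicate 2 than on WT replicate 1, with Fcgrt the exception, against 44.4% of all genes. Likewise 9 were higher on Tg replicate 1 than on Tg replicate 2, with Oat the exception, against 48.5% of all genes. The median gap between the WT arrays was 0.42 over the members and 0.14 over all genes, and it exceeded the Tg minus WT difference in 8 members and in 55.1% of all genes. Ldha, Slc16a1, Hk1, Cat and Mgst1 shared 1 order of the arrays, with WT replicate 2 highest, then Tg replicate 1, Tg replicate 2 and WT replicate 1. Over all genes 4.10% had that order.

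Mean levels of exocrine pancreas markers had the same order. Acinar cells, which make digestive enzymes, surround the islets, and the mean log2 value of 9 measured acinar markers was 10.04 and 9.73 on the Tg arrays and 9.45 and 10.28 on the WT arrays. Their summed linear signal was 45985 and 37191 on the Tg arrays and 31795 and 53412 on the WT arrays, and 6 of the 9 had the order of Ldha. The mean of 5 measured duct markers was 8.21 and 8.12 on the Tg arrays and 7.56 and 8.48 on the WT arrays. Their summed linear signal was 1618 and 1622 on the Tg arrays and 1932 and 2650 on the WT arrays, which is not that order. Of the duct list Cftr was higher and Prom1 lower (difference -1.0) past the adjusted test, and 0 acinar markers passed it. The WT mean of Cftr, 5.48, lay below the olfactory line of 5.82, so no size is given for it. The call of Cftr was lost without Tg replicate 1 and without Tg replicate 2, and that of Prom1 with each array left out. Both calls were also lost with the replicate number as a block and without variance moderation. The duct keratin gene Krt19 had 8.38 and 7.82 on the Tg arrays and 6.91 and 9.31 on the WT arrays. Of the duct list only Krt19 and Sox9 had the order of Ldha, and Cftr and Prom1 did not. Krt7 had the reverse order, with 8.35 and 8.52 on the Tg arrays and 8.63 and 8.30 on the WT arrays. Beta cell markers had a mean of 11.04 and 11.13 on the Tg arrays and 11.33 and 11.09 on the WT arrays. Of the 9 measured, 3 were higher and 6 lower in Tg islets, with 2 of the lower ones at an unadjusted p under 0.05 (limma). By the adjusted test 0 passed. The acinar marker Amy2b, with a WT mean of 4.30, also lay below the olfactory line of 5.82. The part of exocrine cells in the values of the disallowed genes was not tested, and 4 arrays are too few for a correlation across samples.

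The genes whose values over the 4 arrays were most like those of the lactate pair were picked by Pearson's r, among genes that varied at least as much. For Ldha they were Serpinb5, Ampd3 and Cpb1, which encodes the acinar carboxypeptidase B, and for Slc16a1 they were Ceacam1, Hamp and Anxa3. Over 4 arrays such likeness was not limited to these genes. With Ldha, r was above 0.95 for 95 of 3512 genes compared. With Slc16a1 it was above 0.95 for 71 of 569 genes compared, a larger share. Ceacam1 had 11.53 and 11.25 on the Tg arrays and 10.58 and 12.34 on the WT arrays.

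**Figure D4:**
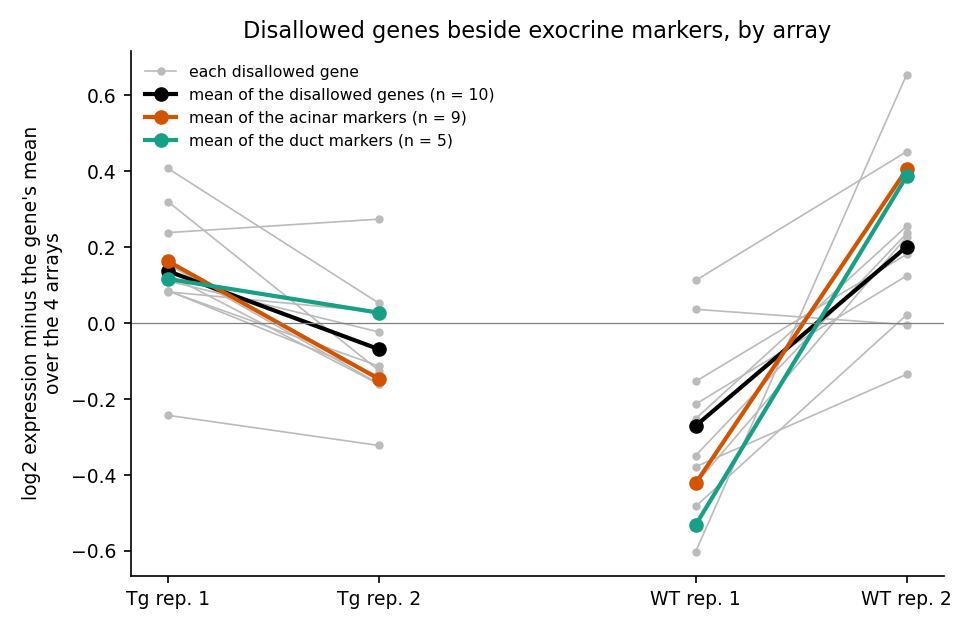
The log2 value of each gene minus its mean over the 4 arrays is plotted by array, with the Tg arrays on the left and the WT arrays on the right. Grey lines are the 10 disallowed genes, and heavy lines the means of the disallowed genes (black), 9 acinar markers (orange) and 5 duct markers (green). All 3 means are highest on WT replicate 2 and lowest on WT replicate 1.

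A wider list of 17 genes described as low in beta cells or islets, all of them measured, gave 0 members past the adjusted test. By unadjusted p, 2 were higher and 1 lower, and the median difference was 0.11. Arhgdib, a gene abundant in leukocytes, had 8.06 and 7.75 on the Tg arrays and 7.02 and 6.60 on the WT arrays (difference 1.09, SE 0.18; limma adjusted p = 0.079), beside the higher immune markers given above. Gas6, a ligand of the Axl and Mertk receptors, had 7.31 and 7.30 on the Tg arrays and 7.98 and 8.22 on the WT arrays (difference -0.80, SE 0.12; limma adjusted p = 0.064). Cd302, a lectin receptor, was at 0.31, with a WT mean of 5.27 that lay below the olfactory line of 5.82. Several others had WT arrays far apart, such as the chemokine gene Cxcl12, with 7.57 and 7.67 on the Tg arrays and 7.26 and 9.10 on the WT arrays. Its difference of -0.56 was -1.48 without WT replicate 1, where it passed (limma adjusted p = 0.030), and 0.36 without WT replicate 2.

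Known regulators of disallowed genes gave 0 of 11 measured members past the adjusted test, with a median difference of -0.092. Rfx6 had 11.09 and 10.94 on the Tg arrays and 11.37 and 11.20 on the WT arrays (difference -0.27, SE 0.12; limma adjusted p = 0.465). Dnmt3a had 8.36 and 8.21 on the Tg arrays and 8.33 and 8.27 on the WT arrays (difference -0.017, interval -0.29 to 0.26). Insm1, a zinc finger factor of endocrine cells, was the only one under the unadjusted threshold (-0.39, SE 0.12; limma adjusted p = 0.271). The probesets of the miR-29 genes, whose shared seed is printed above, stood near the bottom of the range. Mir29a had a Tg mean of 4.05 and a WT mean of 3.97 (percentile 7.66 in WT), and Mir29b-1 had 3.19 in Tg and 3.19 in WT islets (percentile 0.334 in WT). Such probesets read the gene and not the mature microRNA, so they say little of miR-29 itself. Mir29b-2 and Mir29c were not analysed here.

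Hypoxia-inducible genes were compared because the core printed for Ldha, Slc16a1 and Hk1 is that of hypoxia-inducible factors. Of 12 measured genes, 0 passed the adjusted test, 1 was higher and 1 lower by unadjusted p, and the median difference was -0.10. Egln3, an oxygen-sensing prolyl hydroxylase, had 7.37 and 7.92 on the Tg arrays and 6.83 and 6.78 on the WT arrays (difference 0.84, SE 0.19; limma adjusted p = 0.163). Ndrg1 was at -0.33 (SE 0.11) and Vegfa, the angiogenic factor, at -0.24 (SE 0.10).

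**Figure D5:**
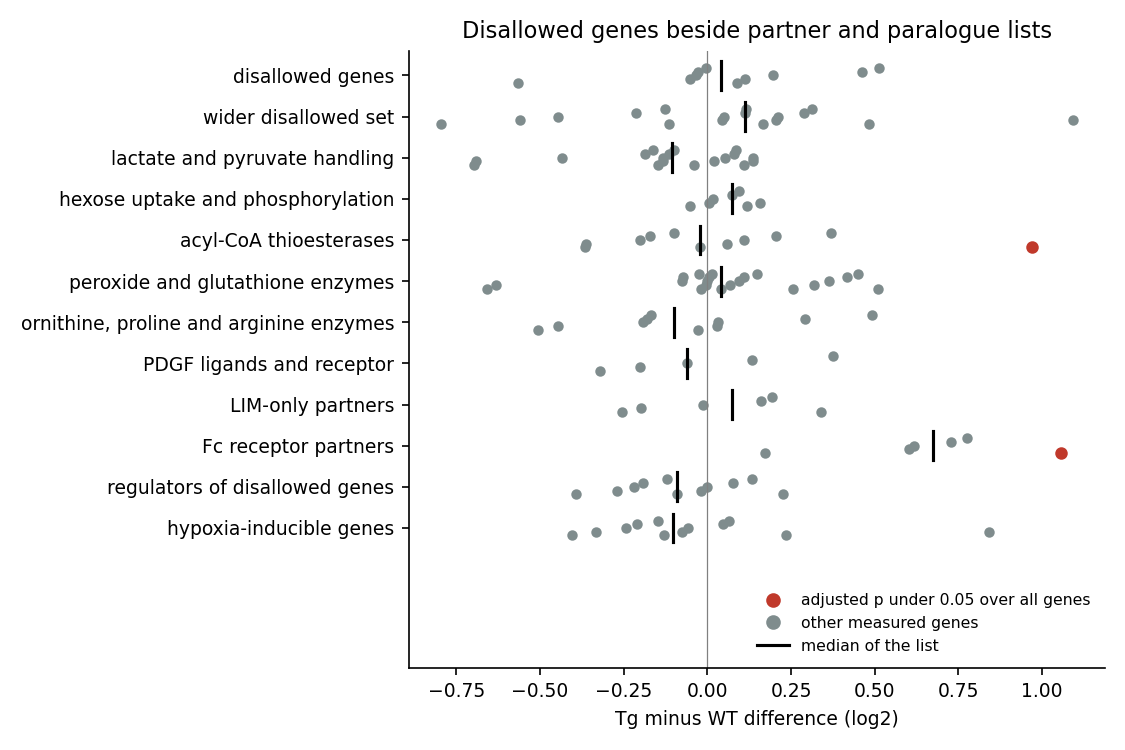
Each point is the Tg minus WT difference on the log2 scale of 1 measured gene, by list, with the 10 disallowed genes on the top row and a black bar at each list's median. Red points passed an adjusted p under 0.05 over all 22180 genes, and Acot12 (0.97) and Fcgr2b (1.06) are the only ones among these lists.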

How the data were processed

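Total RNA (250 ng) of islets went onto Affymetrix Mouse Gene 2.0 ST arrays (labels' protocols). The values the authors deposited are log2, judged by their range. Partek and RMA, a method of background correction, quantile normalisation and probe summary, appear without versions in the submitters' processing notes. The sources used here name no genome build for the values, and sequences come from RefSeq tables on GRCm38.p6.

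Groups came from sample titles. Of 27037 probesets, 23521 had 1 gene symbol, and the brightest by mean stood for a gene. Tg minus WT was fitted with limma 3.58.1 in R 4.3.3 (lmFit, eBayes), with Benjamini-Hochberg adjustment over 22180 genes and a threshold of 0.05. Residual degrees of freedom were 2, to which moderation added 3.76. In 20 simulations of this comparison over 22180 genes, 63.5% of 2-fold and 96.7% of 4-fold changes were recovered. These rates are over all genes and not the members. The members had a wider median gap between the WT arrays (0.42, against 0.14 over all genes), and recovery for them was not tested. The number of arrays limits the precision. Named genes were the members, a fixed set of partners, and from each list those past the threshold and the 3 with the smallest p. Others (Col1a1, Col3a1, Dcn, Krt19, Cftr, Prom1, Coro1a, Cxcl12, Fcgr3, Fcer1g) were chosen after their values were seen. The members and lists were chosen with earlier results of these data known. Alternatives covered probeset choice, level filter, scaling, variance model, replicate block and arrays left out.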

Additional observations from a re-analysis of the deposited data

How the results depend on the processing

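All alternatives were planned. None of the 10 disallowed genes passed the adjusted threshold under any of 14 alternatives, and the lowest adjusted p was 0.119. Oat, Pdgfra and Lmo4 kept their direction throughout, and the other 7 turned sign at least once, only when an array was left out. Their median difference of 0.042 ranged from -0.16 to 0.33 when 1 array was left out, and between 0.031 and 0.088 elsewhere; the filter at the median level removed 5 members. The median WT percentile of 52.0 lay between 50.4 and 55.2, and 5 members instead of 9 lay above a line at the 99th percentile of the olfactory receptor genes. Against 199 genes past the threshold over all genes, 347 passed with a variance trend and robust prior, no moderation gave 0 (with 1928 genes under an unadjusted 0.05, where moderated limma had 2627), the replicate block gave 24, and leaving out each array gave 38 to 135. Replicate differences correlated at -0.063 between the groups, so the numbers were not taken to pair the arrays; the block called none of the disallowed genes. For the 6 named genes past the threshold (Ffar3, Acot12, Fcgr2b, Cftr, Prom1 and Coro1a), calls were kept in 54 of 83 gene and alternative pairs, lost in 29 and reversed in 0. All 6 lost the call without moderation, and all but Ffar3 lost it with the replicate block. Over the 55 other named genes, 11 of 750 such pairs gained a call, for Gpd2, Gas6, Arhgdib, Dcn or Cxcl12. The cause was not tested.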
